A study of Mus musculus with 2 samples.

Results

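The 33 genes described here encode the pyruvate dehydrogenase (PDH) complex, its regulators and the enzymes of the tricarboxylic acid (TCA) cycle. They were taken by symbol from a deposited table of 16803 genes, and all 33 were listed once and passed the filter of at least 10 reads in both libraries together. The table comes from NE4C cells, an established line of mouse neural stem cells, grown in Eagle MEM on plates coated with poly-L-lysine. Its 2 columns are the control library, of normally cultured NE4C, and the HTL library, of NE4C given homocysteine thiolactone (HTL), the cyclic thioester of homocysteine, which can attach homocysteine to lysine residues of proteins. No transgene or deletion is named for either group, and the dose and duration of the treatment are not stated for these libraries. With 1 library a condition, nothing below could be checked against replicates, and every interval or test covers only the counting error of these libraries. In RNA from whole cultures, fewer cells of a type and less RNA per cell cannot be told apart.

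Pyruvate made by glycolysis enters mitochondria through the Mpc1-Mpc2 carrier and is turned into acetyl-CoA by the PDH complex. PDH kinases switch the complex off by phosphorylating its E1 alpha subunit, and PDH phosphatases switch it on again. The TCA cycle oxidises the acetyl group, passing electrons to NAD and, at succinate dehydrogenase, to FAD, and also supplies carbon skeletons for amino acid and lipid synthesis. Proliferating stem cells are known for sending much of their pyruvate to lactate, a choice in which the PDH kinases take part.

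Across the 33 genes, the PDH kinases Pdk1 and Pdk2 fell, Mdh1 and Pcx rose by less, and 27 of the 33 had log2 ratios (HTL over control) within 0.5 of 0. By an exact binomial test on the reads with Benjamini-Hochberg adjustment over all 13442 genes tested, 2 members had an adjusted p within 0.001 and a log2 ratio of -1 or lower, the cutoffs of the study's methods. Of all genes tested, 7.98% passed the same rule. No member passed it with a log2 ratio of at least 1, where 2.81% of all genes did. At a log2 ratio of at least 0.5, or of -0.5 or lower, and the same adjusted p, for which "rose" and "fell" are used below, 2 members rose (8.9% of all genes) and 2 fell (18.2%). The share of members was not above that of all genes in either direction under either rule. Scaling the libraries by TMM in place of their totals raised all log2 ratios by 0.13. Then 4.11% of all genes were called higher and 5.94% lower, with 0 and 2 members among them, and 13.1% and 13.8% passed the log2 cutoff of 0.5, with 8 and 2 members. The 6 added members were Cs, Dlat, Idh3g, Sdhb, Sdhc and Sdhd.

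The small differences were mostly upward. The log2 ratio was above 0 for 23 of the 33 members and for 41.3% of all genes, and below 0 for 10 members and for 58.7% of all genes. Under TMM scaling it was above 0 for 25 members and for 49.4% of all genes. Without a cutoff on size, 14 members passed the adjusted p in the upward direction (14.5% of all genes) and 4 in the downward one (24.1%). The median log2 ratio of the members was 0.16, between quartiles of -0.12 and 0.38, and that of all genes tested was -0.14, between quartiles of -0.60 and 0.28. Against that median, 25 of the 33 members lay higher. The members were more abundant than most genes, with a median of 857 reads against 193. Among the 3831 genes that averaged at least 500 reads, the log2 ratio was above 0 for 46.2%, and for 20 of the 26 members among them. At that depth 29.9% of genes passed the adjusted p upward and 36.8% downward, beside 15 and 3 of the 26 members. At a biological coefficient of variation of 0.1 that was assumed between cultures and that these libraries cannot measure, none of the 14 passed edgeR's exact test at that adjusted p, and 2 lower members did (Pdk1 and Pdk2).

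**Figure D1:**
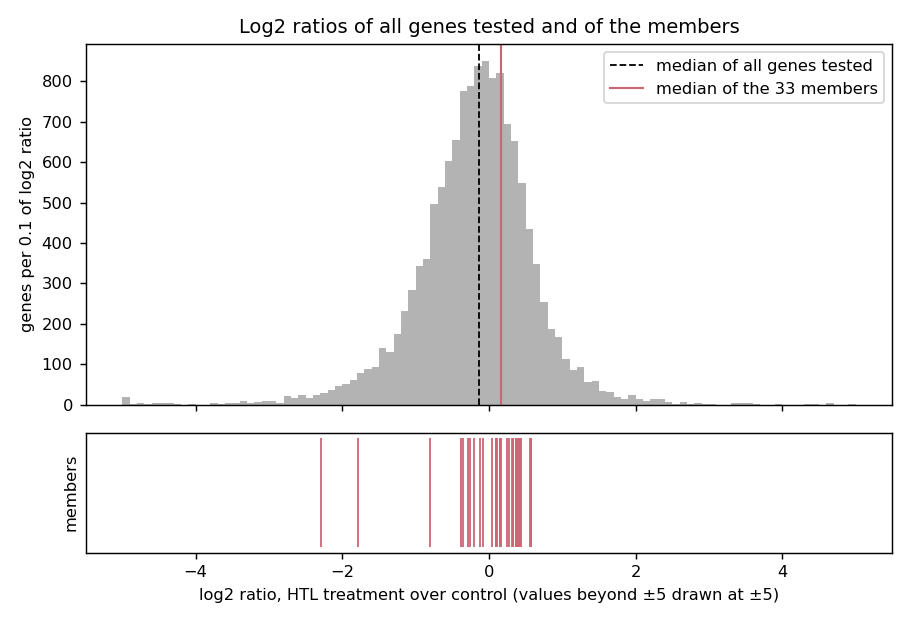
The histogram gives the number of genes per 0.1 of log2 ratio (HTL treatment over control) for all 13442 genes tested, and the strip below it marks each of the 33 members. Most members lie just right of the dashed median of all genes (-0.14), around their own median of 0.16, and Pdk1 and Pdk2 stand alone near -2.

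Levels between genes are compared as the deposited FPKM, which is scaled to transcript length. The members covered a wide range in the control library, from Pdp1 at 1.80 FPKM to Mdh2 at 186.95 FPKM. Many, but not all, enzymes of the cycle lay above the regulators. Succinate dehydrogenase subunits ran from 51.11 to 70.59 FPKM and those of NAD isocitrate dehydrogenase from 58.43 to 68.44 FPKM in the control library. The 4 kinase and phosphatase members were at 1.80 to 16.27 FPKM, a range that also held Sucla2 (14.71 FPKM). The carrier genes Mpc1 and Mpc2 were at 3.71 and 2.56 FPKM. The summed share of the 33 members was 3179 CPM (counts scaled to equal library totals) in the control and 3496 CPM in the HTL library.

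**Figure D2:**
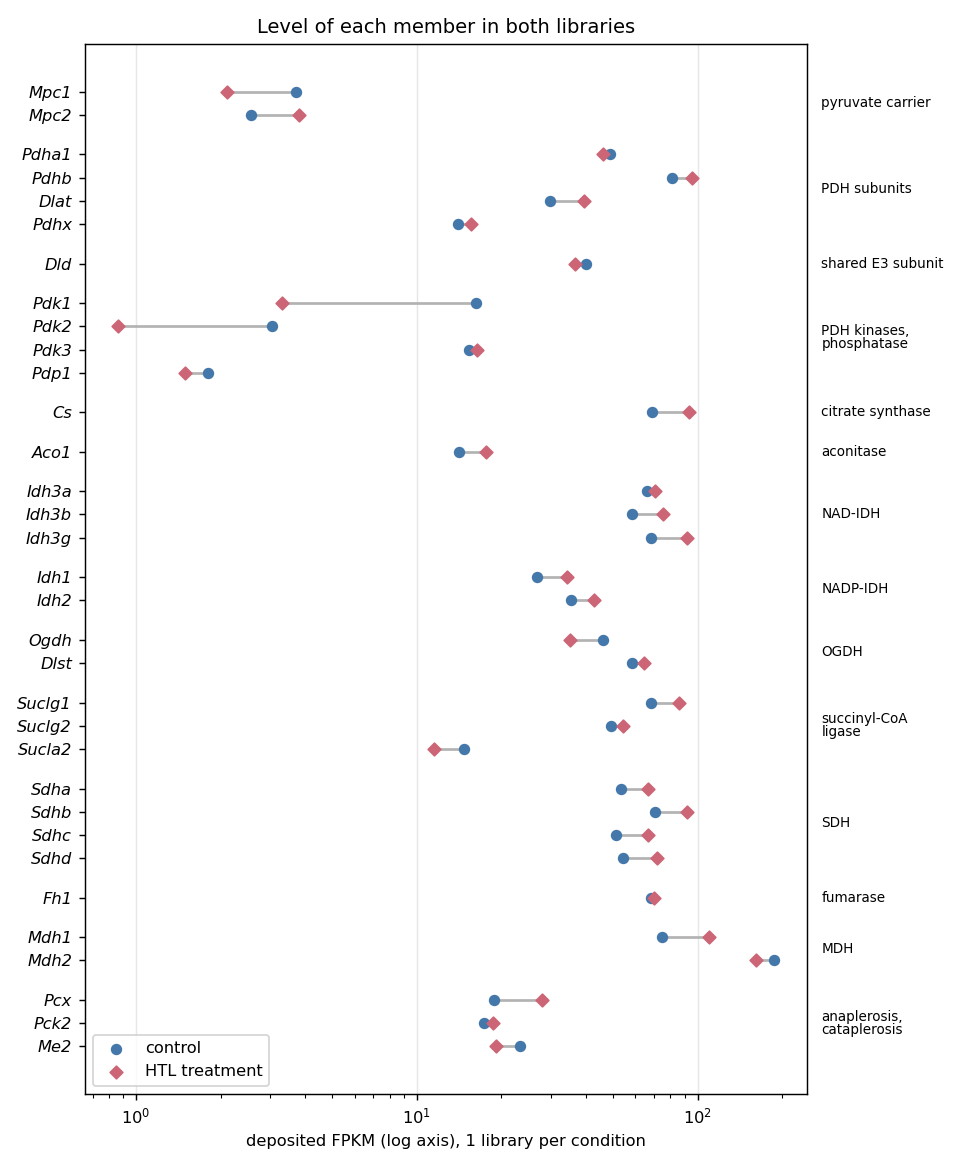
Each row is a member, grouped by role, with its deposited FPKM on a log axis in the control library (circle) and the HTL library (diamond), 1 library each. The long grey lines of Pdk1 (16.27 to 3.31 FPKM) and Pdk2 (3.05 to 0.86 FPKM) stand out from the short ones of the enzymes.

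Of the members, 2 PDH kinases had the lowest log2 ratios. Pdk1 (gene ID 228026; NCBIM37 chromosome 2, 71711281 to 71741915, on the plus strand) was at 885 reads in the control and 159 in the HTL library. That is a log2 ratio of -2.29 (-2.54 to -2.05, here and below the 95% Clopper-Pearson interval), 4.88-fold lower, at percentile 1.51 of all genes tested. Pdk1 is a kinase known as a target of the hypoxia-inducible factor HIF-1. Pdk2 (gene ID 18604; chromosome 11, 94887572 to 94902668, minus strand), a widely expressed kinase, had 72 and 18 reads. Its log2 ratio was -1.79 (-2.65 to -1.05), and its interval, wide because the reads were few, lay below the cutoff of -1 when scaled to library totals. Other scalings raised all log2 ratios by 0.093 to 0.14, more than the distance of the upper end of that interval from -1. The log2 ratio of Pdk2 itself was -1.66 under TMM scaling. Pdk3 (gene ID 236900; chromosome X, 91009946 to 91077540, minus strand), another isoenzyme, had 317 and 298 reads, with a log2 ratio of 0.096 (-0.14 to 0.33). The interval of Pdk3 did not overlap those of Pdk1 and Pdk2. At an assumed coefficient of variation of 0.2 the call of Pdk2 was lost in edgeR's exact test, and at 0.4 that of Pdk1 was lost too. Together the 3 kinases summed to 34.65 FPKM in the control and 20.52 FPKM in the HTL library. Pdk1 made up 47.0% of that sum in the control and 16.1% in the HTL library, and Pdk3 44.2% and 79.7%. Pdk4, the isoenzyme known from fasted muscle and liver, had 4 and 3 reads and was not tested. Of the phosphatases that reverse the kinases, Pdp1 had 79 and 58 reads, with a log2 ratio of -0.26 (-0.77 to 0.25), and Pdp2 had 209 and 184 reads and one of 0.0017 (-0.29 to 0.29).

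**Figure D3:**
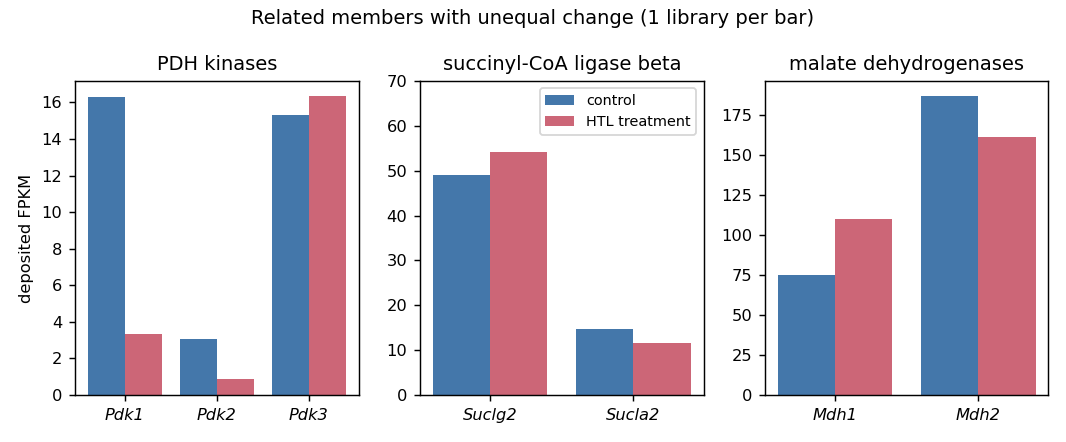
Bars give the deposited FPKM from 0 in the control and HTL libraries, 1 library per bar, for the PDH kinases, the beta subunits of succinyl-CoA ligase and the malate dehydrogenases. Pdk1 and Pdk2 drop while Pdk3 stays near 16 FPKM, and Mdh1 comes closer to Mdh2.

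The 250 bases before the start of the 3 kinase genes are shown because these isoenzymes differed most within one family. They come from RefSeq on GRCm38.p6, a later build than that of the deposited table, and capitals mark the motifs found.

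Pdk1 (chr2:71872974-71873223, plus strand): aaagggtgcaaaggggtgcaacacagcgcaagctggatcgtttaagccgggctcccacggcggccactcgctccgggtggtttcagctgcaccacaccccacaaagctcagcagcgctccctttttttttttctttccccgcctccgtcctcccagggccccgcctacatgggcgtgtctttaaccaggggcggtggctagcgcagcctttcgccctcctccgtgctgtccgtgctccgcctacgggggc

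Pdk2 (chr11:95041372-95041621, minus strand): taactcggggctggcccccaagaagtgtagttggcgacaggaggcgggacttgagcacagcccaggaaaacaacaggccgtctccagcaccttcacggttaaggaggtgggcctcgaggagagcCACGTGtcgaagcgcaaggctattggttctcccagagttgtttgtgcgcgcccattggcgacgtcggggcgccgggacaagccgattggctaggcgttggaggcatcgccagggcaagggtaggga

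Pdk3 (chrX:93832151-93832400, minus strand): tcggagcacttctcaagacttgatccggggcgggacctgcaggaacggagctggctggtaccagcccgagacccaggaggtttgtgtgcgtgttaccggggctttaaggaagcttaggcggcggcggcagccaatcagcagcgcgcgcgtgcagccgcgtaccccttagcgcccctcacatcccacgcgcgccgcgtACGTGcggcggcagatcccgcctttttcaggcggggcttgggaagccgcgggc

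Searched on both strands were the core of the hypoxia response element ACGTG, the E-box CACGTG (which contains that core), the C/EBP-ATF composite TGATGNAA, the ERR site AAGGTCA, the NRF1 site GCATGCGC and the ETS site CCGGAAG. Pdk1 and Pdk2 each had 2 windows, of which 1 is printed. Neither Pdk1 window held any of the motifs. The printed Pdk2 window held an E-box whose first base lies 126 bases before the start, and the Pdk3 window an ACGTG 53 bases before it. The other Pdk2 window (chr11:95040876-95041125) held none. Of all 32851 RefSeq windows of this length, 16.6% held ACGTG and 6.02% the E-box, and of the 39 windows of members 33.3% and 12.8%, with several of the starts belonging to Ogdh. Of the 29 members with a window, 8 had ACGTG in at least 1 window (Idh3g, Mdh1, Ogdh, Pcx, Pdhb, Pdk2, Pdk3 and Sdha). Of the 16337 windows that belong to genes of the deposited table, 20.3% held ACGTG and 7.76% the E-box. The C/EBP-ATF composite was found in 1 member, Pck2, in 3.45% of all windows and in 2.12% of those of the deposited table's genes. The NRF1 site was found in Ogdh and Sdhb, 7.69% of the members' windows, against 2.26% of all windows and 3.67% of those of the table's genes. The ETS site was found in Idh3g, Mpc1 and Sdhd, 7.69% of the members' windows, which lies above the 6.91% of all windows and below the 11.3% of those of the table's genes. The ERR site was found in no member, against 4.08% and 3.05%. A match of letters is a description and not a binding site, and genes with several starts had several windows.

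The pyruvate carrier, whose Mpc1 and Mpc2 subunits work as a pair, was at few reads. Mpc1 had 34 reads in the control and 17 in the HTL library, and Mpc2 had 22 and 29. Their log2 ratios of -0.80 (-1.75 to 0.065) and 0.57 (-0.27 to 1.45) both had intervals that include 0, so no difference was detectable at this depth.

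The subunits of the PDH complex had log2 ratios from -0.12 (Dld) to 0.40 (Dlat), all short of the log2 cutoff of 0.5. Pdhb, the E1 beta subunit, had 1234 and 1286 reads, with a log2 ratio of 0.24 (0.13 to 0.36), and Dlat, the E2 acetyltransferase, had 1258 and 1464 reads and one of 0.40 (0.29 to 0.51). Both passed the adjusted p of 0.001 (exact binomial test) but not the log2 cutoff of 0.5, which Dlat passed under TMM scaling (0.53). Pdha1, the E1 alpha subunit that the kinases phosphorylate, had 1459 and 1214 reads, with a log2 ratio of -0.080 (-0.19 to 0.031), above 0 under each other scaling. In the deposited annotation it shares its best protein match with 4930519F09Rik (177 and 104 reads), and its exons overlap Map3k15 on the opposite strand, so its reads are uncertain. Pdhx, which anchors the E3 subunit, had 368 and 361 reads, with a log2 ratio of 0.16 (-0.056 to 0.37). Dld, the E3 subunit that PDH shares with oxoglutarate dehydrogenase, had 947 and 766 reads and one of -0.12 (-0.26 to 0.018), which was 0.0097 under TMM scaling. Summed over Pdha1, Pdhb, Dlat and Pdhx, the complex had 417 CPM in the control and 475 CPM in the HTL library.

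Citrate synthase and the isocitrate dehydrogenases had log2 ratios above 0 but short of the cutoff, which Cs and Idh3g passed under TMM scaling. Cs, which joins acetyl-CoA to oxaloacetate, had 2023 and 2411 reads, with a log2 ratio of 0.44 (0.35 to 0.52). Aco1, the cytosolic aconitase that also acts as an iron-regulated RNA-binding protein, had 638 and 699 reads and one of 0.32 (0.16 to 0.47). Of the NAD-linked enzyme, which works in the cycle, the regulatory subunits Idh3b (913 and 1037 reads, 0.37, 0.24 to 0.50) and Idh3g (936 and 1108 reads, 0.43, 0.30 to 0.56) passed that adjusted p. Exons of Idh3b overlap Nop56 on the opposite strand. The catalytic subunit Idh3a, with 1655 and 1557 reads, had a log2 ratio of 0.097 (-0.0034 to 0.20), and its interval did not overlap those of the regulatory subunits. The NADP-linked enzymes Idh1, in the cytosol (630 and 713 reads), and Idh2, in mitochondria (626 and 667 reads), had log2 ratios of 0.36 (0.21 to 0.52) and 0.28 (0.12 to 0.44), and of this pair only Idh1 passed. The shares of the 5 genes in their summed FPKM differed little between the libraries, the largest difference being that of Idh3a, 25.9% in the control and 22.4% in the HTL library.

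At oxoglutarate dehydrogenase the catalytic and the core subunit had unlike values. Ogdh, the E1 subunit, had 3206 reads in the control and 2154 in the HTL library, a log2 ratio of -0.39 (-0.47 to -0.31). Dlst, the E2 subunit, had 1672 and 1626 reads and one of 0.15 (0.046 to 0.24), so the intervals did not overlap. Longer transcripts tended to lower log2 ratios over all genes tested. In 10 bins by length the median went from 0.14 for the shortest to -0.38 for the longest. Ogdh (6633 bases) is the 1 member of the longest bin, and relative to the median of that bin its log2 ratio was -0.011. Pdk1 (5202 bases) lies in bin 9, with a median of -0.28, and its log2 ratio relative to that median was -2.01. The part of length in these differences was not tested.

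The succinyl-CoA ligase pairs a shared alpha subunit, Suclg1, with a beta subunit that makes either GTP (Suclg2) or ATP (Sucla2). Suclg1 had 986 and 1093 reads, with a log2 ratio of 0.33 (0.21 to 0.46). Suclg2 had 1761 and 1714 reads and one of 0.15 (0.050 to 0.24), while Sucla2 had 321 and 221 reads and one of -0.35 (-0.61 to -0.10). The intervals of the beta subunits did not overlap, and Sucla2 made up 23.1% of their summed FPKM in the control and 17.5% in the HTL library. Of the 3 genes, only Suclg1 passed the adjusted p of 0.001.

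The 4 subunits of succinate dehydrogenase, which is also complex II of the respiratory chain, had log2 ratios between 0.33 and 0.41. Sdha, the flavoprotein, had 1586 reads in the control and 1749 in the HTL library, and Sdhb, the iron-sulfur subunit, had 784 and 895. The membrane anchors Sdhc and Sdhd had 615 and 703 reads and 711 and 833 reads. Their log2 ratios were 0.33 (0.23 to 0.43), 0.38 (0.24 to 0.52), 0.38 (0.22 to 0.54) and 0.41 (0.27 to 0.56). All 4 passed the adjusted p of 0.001 (exact binomial test), as 14.5% of all genes and 29.9% of those averaging at least 500 reads did in that direction, and their intervals overlapped one another. Under TMM scaling Sdhb, Sdhc and Sdhd also passed the log2 cutoff of 0.5. Relative to the median of genes in the same bin of length, the values were 0.46 for Sdha and 0.43 for Sdhd but 0.24 for both Sdhb and Sdhc, whose transcripts are the shortest of the 4.

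Fumarase and the malate dehydrogenases ended the cycle with unlike values. Fh1 had 1150 and 1044 reads, with a log2 ratio of 0.046 (-0.076 to 0.17). Mdh1 (gene ID 17449; NCBIM37 chromosome 11, 21456790 to 21472370, minus strand), the cytosolic enzyme of the malate-aspartate shuttle, rose from 1515 to 1962 reads, a log2 ratio of 0.56 (0.46 to 0.66). Mdh2, the mitochondrial enzyme of the cycle, had 2482 and 1889 reads and one of -0.21 (-0.30 to -0.12), so Mdh1 made up 28.6% of their summed FPKM in the control and 40.5% in the HTL library. Exons of Mdh1 overlap Wdpcp on the opposite strand, and the sources do not say whether reads were assigned by strand, so its reads are uncertain.

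Of the enzymes that fill or drain the cycle, Pcx rose. Pcx (gene ID 18563; NCBIM37 chromosome 19, 4510472 to 4621752, on the plus strand), pyruvate carboxylase, which makes oxaloacetate, had 812 reads in the control and 1066 in the HTL library, a log2 ratio of 0.58 (0.45 to 0.71), the highest of the 33. Pck2, the mitochondrial phosphoenolpyruvate carboxykinase, had 612 and 581 reads and one of 0.11 (-0.056 to 0.28). Me2, a mitochondrial malic enzyme, had 594 and 428 reads and one of -0.29 (-0.47 to -0.11), which did not pass. With an assumed coefficient of variation of 0.1, neither Mdh1 nor Pcx passed edgeR's exact test.

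**Figure D4:**
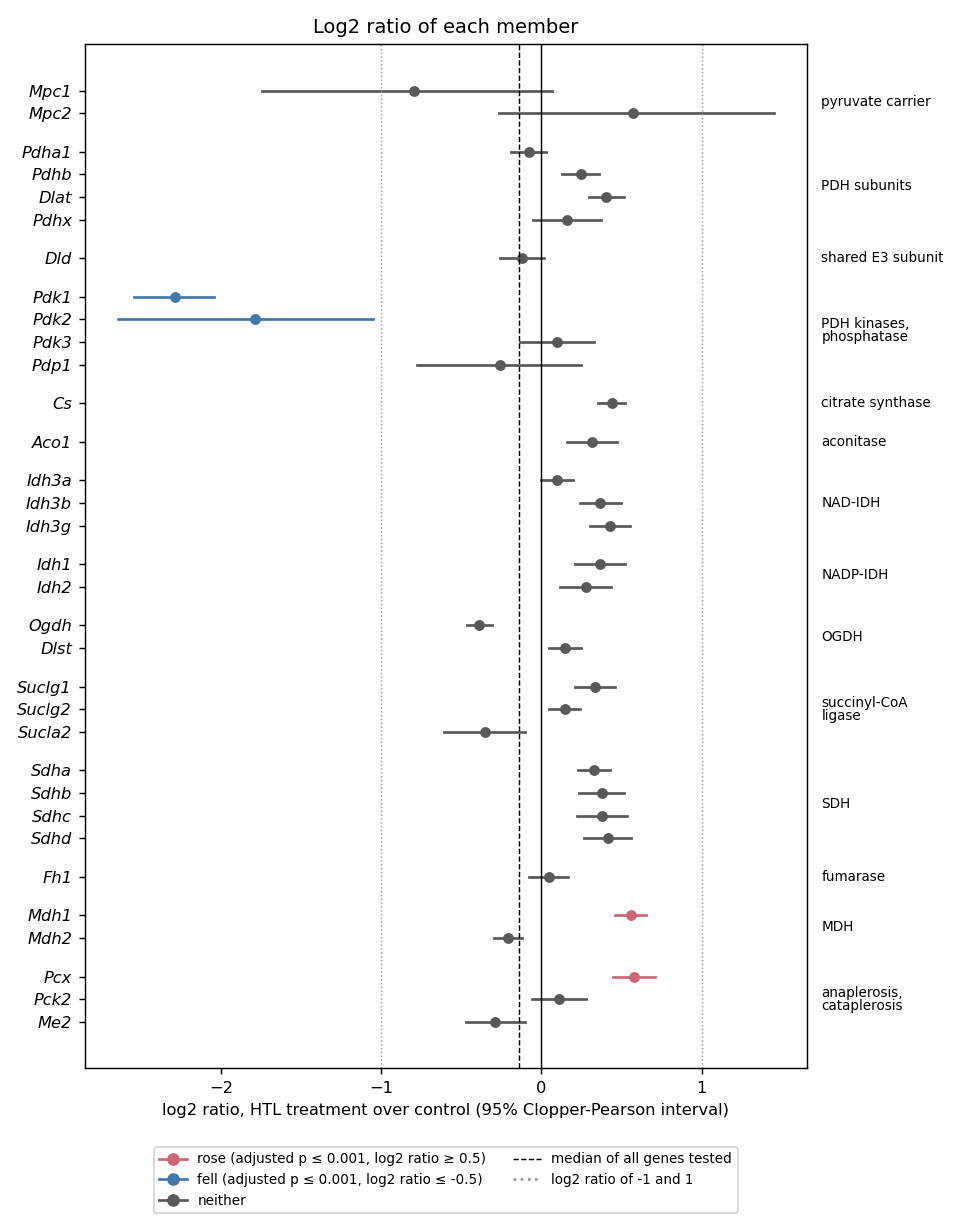
Each row is a member, grouped by role, with its log2 ratio (HTL treatment over control) and 95% Clopper-Pearson interval, which covers counting error only. Pdk1 and Pdk2 (blue) lie left of -1, Mdh1 and Pcx (red) lie between 0.5 and 1, and the 4 succinate dehydrogenase (SDH) subunits line up between 0.33 and 0.41.

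The other genes of the pathway, 45 in a list, differed in both directions. Of the 43 tested, 1 was called higher and 4 lower at the cutoffs of the study's methods, beside 2.81% and 7.98% over the table. At the log2 cutoff of 0.5, 4 rose and 9 fell, beside 8.9% and 18.2%. Under TMM scaling 6 passed that cutoff in each direction, beside 13.1% and 13.8% of all genes, so the larger number of lower genes depended on the scaling. Their median log2 ratio was -0.13, and 20 were above 0. Gpt2, the mitochondrial alanine aminotransferase that turns glutamate and pyruvate into oxoglutarate and alanine, had 724 and 1386 reads, with a log2 ratio of 1.12 (0.99 to 1.25).

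The 4 called lower included a pair of mitochondrial carriers of cycle intermediates. Slc25a10, the dicarboxylate carrier, had 148 and 29 reads, with a log2 ratio of -2.15 (-2.79 to -1.58). Slc25a11, the oxoglutarate-malate carrier, had 698 and 296 reads and one of -1.05 (-1.25 to -0.85), which was -0.92 under TMM scaling and so short of the cutoff. Ppm1k, the phosphatase of the related branched-chain dehydrogenase, had 217 and 43 reads and one of -2.14 (-2.66 to -1.67). Its counterpart kinase Bckdk fell too, from 508 to 249 reads (-0.84, -1.07 to -0.62). D2hgdh, which oxidises D-2-hydroxyglutarate, had 133 and 58 reads, with a log2 ratio of -1.01 (-1.48 to -0.56), -0.88 under TMM scaling.

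Among the other carriers and feeding enzymes, the citrate carrier Slc25a1 (-0.55) and the glutamate carrier Slc25a22 (-0.68) fell, but neither passed under TMM scaling. There Slc25a1 (-0.42) was short of the log2 cutoff, and Slc25a22 (-0.55) was past it but did not pass the adjusted p. Glud1, glutamate dehydrogenase, had 1964 and 1232 reads, with a log2 ratio of -0.49 (-0.59 to -0.38), just short of the cutoff. The aspartate aminotransferase Got1, the cytosolic partner of Mdh1 in the malate-aspartate shuttle, rose from 2465 to 3162 reads (0.54, 0.47 to 0.62). Its mitochondrial counterpart Got2 had 5922 and 6077 reads, with a log2 ratio of 0.22 (0.17 to 0.27). Of the lactate dehydrogenases, Ldhb rose from 557 to 829 reads (0.76, 0.60 to 0.92), while Ldha, the more abundant, had 10721 and 7850 reads, with a log2 ratio of -0.26 (-0.31 to -0.22).

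The cofactor and assembly genes are given beside the shares of all genes, of which 8.9% rose and 18.2% fell. Of 13 tested genes for PDH regulation, lipoate, iron-sulfur and thiamine supply, 1 rose, the iron-sulfur assembly gene Isca1 (0.58, 0.37 to 0.80), and none fell. Isca1 was also the only 1 with an interval wholly above 0, while 4 had intervals wholly below 0. These were Isca2 (-0.72, -1.17 to -0.29), Lipt1 (-0.65, -1.11 to -0.21), Bola3 (-0.50, -0.88 to -0.13) and Lias (-0.26, -0.46 to -0.055), and none of them passed the adjusted p. Of the 4 SDH assembly factors, Sdhaf1 fell from 230 to 111 reads (-0.86, -1.21 to -0.53), in the direction opposite to the 4 subunits. Sdhaf2 was at -0.21 (-0.40 to -0.018) and did not pass the adjusted p. Sdhaf3 (0.28, -0.50 to 1.06) and Sdhaf4 (0.16, -0.35 to 0.68) lay above 0, with intervals that include 0. Of the 7 related dehydrogenase genes, the oxoadipate dehydrogenase subunit Dhtkd1 also fell (-0.54, -0.81 to -0.27), but it did not pass under TMM scaling (-0.41). In the same group the branched-chain dehydrogenase E1 subunits Bckdha (0.46, 0.25 to 0.69) and Bckdhb (0.29, 0.13 to 0.44) and the oxoglutarate dehydrogenase paralog Ogdhl (0.47, 0.27 to 0.67) passed the adjusted p upward, short of the log2 cutoff, which Bckdha and Ogdhl passed under TMM scaling (0.59 and 0.60). Dbt, the branched-chain E2 subunit, passed the adjusted p downward, also short of the log2 cutoff, with 478 and 304 reads (-0.47, -0.68 to -0.26). Of the 7 genes, 3 passed the adjusted p upward and 4 downward, beside 14.5% and 24.1% of all genes.

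**Figure D5:**
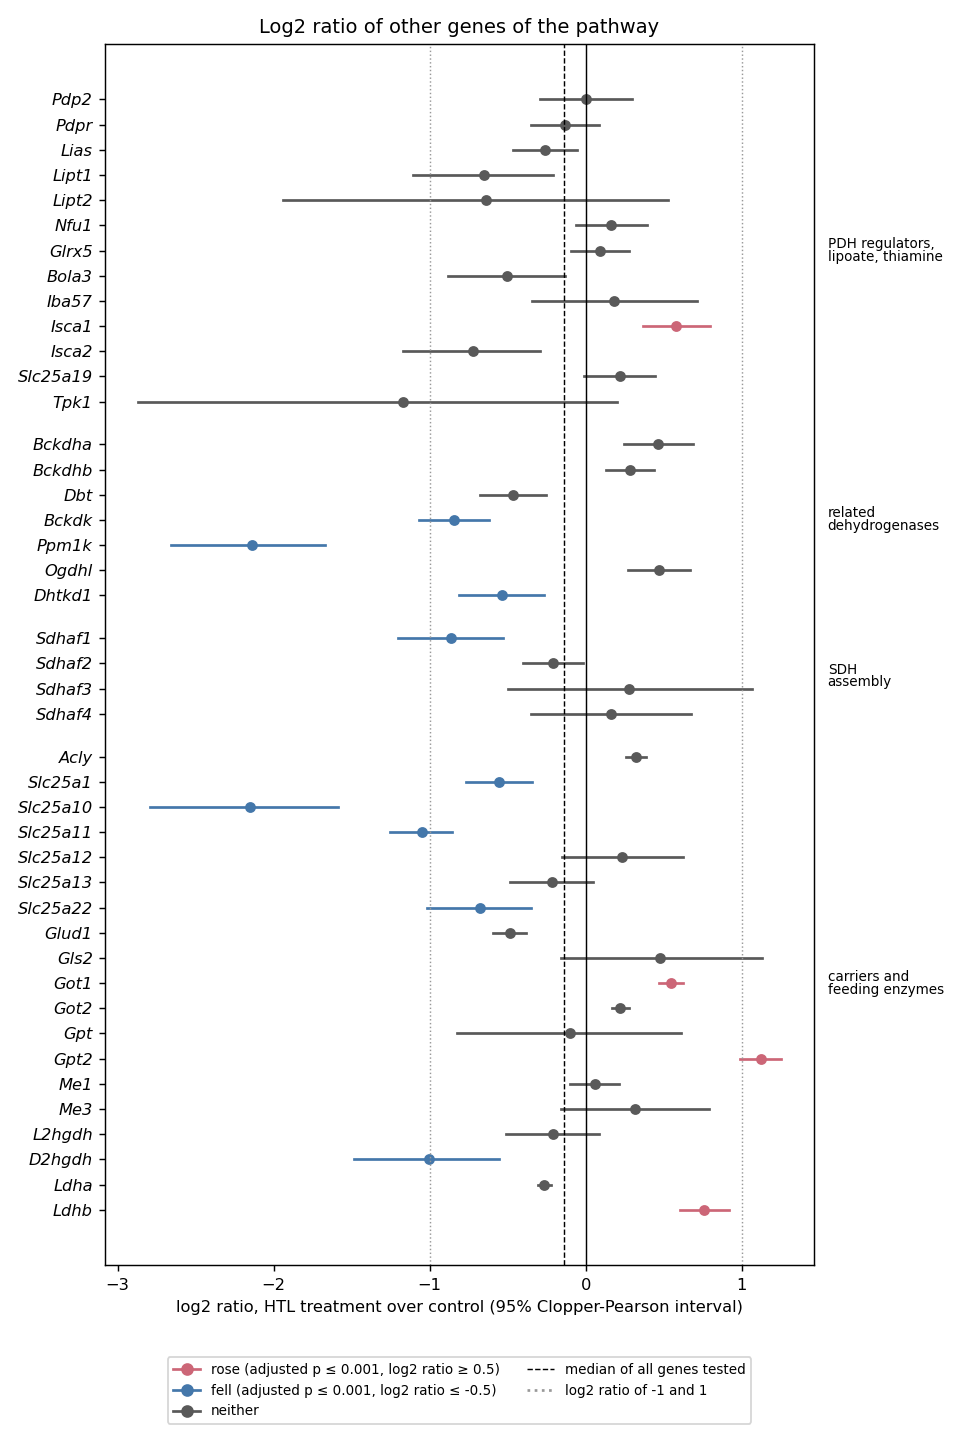
Log2 ratios (HTL treatment over control) with 95% Clopper-Pearson intervals of the 43 other genes of the pathway that were tested, in 4 groups. Gpt2 lies right of 1, and Ppm1k and Slc25a10 lie left of -2.

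Of 11 markers of neural stem cells, 10 were above 3 reads in both libraries, and their summed level was 647 CPM in the control and 486 CPM in the HTL library. Summed neuronal markers were at 60.6 and 65.2 CPM, those of oligodendrocytes at 18.6 and 21.0 CPM and those of mesenchyme at 8.21 and 9.89 CPM. Markers of microglia or blood were at 1.84 and 1.76 CPM and those of astrocytes at 2.22 and 6.15 CPM, with 2 of 4 listed for each. Of the astrocyte markers only Aldh1l1 was above 3 reads, with 21 in the control and 56 in the HTL library. The part of cell types in the differences above was not tested.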

How the data were processed

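Total RNA of NE4C cells was sequenced by the authors in 1 library per condition, and the titles of the samples gave the groups. The libraries, per the labels, were built by TruSeq chemistry (Illumina) and sequenced by BGISEQ protocols. The study's methods say that reads were mapped to the mouse genome and genes and that matched reads were normalized to RPKM with software spelled RESM there, taken here to be RSEM. How the deposited estimated counts were made is not stated further. The submitters' processing notes name mm9. The mapper, versions and use of strand are not given in the sources used here. The authors deposited estimated counts (expected counts, not normalized) and FPKM per gene, with a lowest FPKM of 0.01. The deposited log2 ratio, p-value and false discovery rate columns hold the authors' own comparison and were not used.

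Estimated counts were rounded, and summed to 10350646 in the control and 9102057 in the HTL library. The 13442 genes whose reads reached 10 over both libraries were tested (3361 were left out) by a two-sided exact binomial test against the library totals, with Benjamini-Hochberg adjustment over all of them. Before log2 ratios were taken, 0.5 read was added in proportion to library size. Intervals are 95% Clopper-Pearson. Without molecular identifiers, reads may repeat a molecule, so both cover counting error only and compare these libraries, not the conditions. A floor of 3 reads was used for detection, 0.29 CPM in the control and 0.33 CPM in the HTL library. Scaling factors and the exact test with an assumed coefficient of variation came from edgeR 4.0.16 and DESeq2 1.42.0. The tests were also run on simulated counts, drawn without variation between cultures and with planted changes larger than either log2 cutoff. That is the setting the binomial test assumes, so the run cannot show how the tests behave between cultures or near the cutoffs.

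All 33 members are named. Full values are given for those past an absolute log2 ratio of 0.5 and for the other members of their enzyme, and other genes of the pathway are named when called, or were chosen after their values were seen. The members, lists and motifs were chosen with earlier results of these data known. Gene coordinates are from GENCODE M1 on NCBIM37 (the same assembly as mm9), which matched 31 members by symbol. RefSeq promoter windows matched 29. No other exon overlap than those named was found for the 31. Of the 33 members, 6 had fractional estimates (Pdha1, Pdk1, Cs, Aco1, Ogdh and Suclg2). Genes sharing a best protein match were found from the protein annotation column of the deposited table, and no protein sequences were read. Some genes of the pathway are not reported here.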

Additional observations from a re-analysis of the deposited data

How the results depend on the processing

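No paired analysis was possible because there was 1 library a condition, which also meant that none could be left out. The limit of at least 500 reads was chosen after seeing the data. Other scalings raised all log2 ratios, by 0.13 (TMM), 0.14 (median of ratios) and 0.093 (upper quartile). The number of members that rose, 2, became 8 under TMM, 10 under the median of ratios, 5 under the upper quartile and 5 when ratios were centred within 10 bins of transcript length, beside 13.1%, 13.4%, 11.6% and 13.0% of all genes. It became 0 at each assumed coefficient of variation (0.1, 0.2 and 0.4). No member was called higher under any alternative run. The 2 members called lower, which are also the 2 that fell, became 1 in both counts with a mean of at least 50 reads and with a mean of at least 500 reads, since those limits leave out Pdk2. Both counts became 1 (Pdk1) at a coefficient of variation of 0.2 and 0 at 0.4. On FPKM + 1, which has no test, 3 members lay at -0.5 or lower, with Mpc1 (-0.60) added. The median log2 ratio of the members ran from 0.15 (FPKM + 1) to 0.29 (median of ratios), and was 0.30 over the 26 members with a mean of at least 500 reads, where that of all such genes was -0.049. Pdha1 turned above 0 under TMM (0.050), the median of ratios (0.057), the upper quartile (0.014) and centring by length (0.050), and Dld under TMM (0.0097) and the median of ratios (0.016). The counts for the other genes of the pathway were recomputed after seeing the data. The 4 called lower became 2 under each of the other scalings (TMM, median of ratios, upper quartile), and the 4 that rose became 7 with centring by length. At a coefficient of variation of 0.1, 1 rose and 3 fell. At 0.2, 0 were called higher or rose and 1 was called lower and fell, and at 0.4 all 4 counts were 0. Of the 9 with a mean of at least 500 reads, 0 were called lower and 0 fell. Depth limits Mpc1, Mpc2, Pdk2 and Pdp1, with under 100 reads in each library.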
